A study of Mus musculus with 4 samples.

Results

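The genes described here are 9 alcohol, aldehyde and retinol dehydrogenases (Adh1, Adh4, Adh5, Adh7, Aldh1a1, Aldh1a2, Aldh1a3, Aldh2 and Rdh10), of 23420 genes counted in mouse heart. They were taken by gene symbol, and all 9 had an entry in each count table. Adh1 was put among them for its spread between the hearts, so its values are given below as a description, with no test of its spread or of its ratio to other genes, and the other 8 were chosen by family. Polyadenylated RNA was sequenced in 4 libraries of a single group, C57BL/6J mice labelled male and 12 weeks old, with no treatment or mutation named in the labels. The tissue is labelled whole heart, while the labels' protocols name the apex of the ventricles as the part taken. With a single group, the comparisons open to the design are between genes within a library and between the 4 libraries. Nothing in the labels ties each library to its own animal, and a p-value here measures the spread between these samples, which may be partly technical.

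Retinoic acid is made from vitamin A by successive oxidations. Retinol is first turned into retinaldehyde by retinol dehydrogenases such as RDH10, a membrane enzyme of the short-chain family, and to some extent by cytosolic alcohol dehydrogenases such as ADH1, ADH4 and ADH7. Retinaldehyde is then turned irreversibly into retinoic acid by ALDH1A1, ALDH1A2 or ALDH1A3, and retinoic acid acts on genes through the nuclear receptors RAR and RXR. ADH5 and ALDH2 belong to the same families but serve other substrates: ADH5 oxidises the glutathione adduct of formaldehyde and reduces S-nitrosoglutathione, and ALDH2 clears acetaldehyde and lipid-derived aldehydes in mitochondria. In the developing heart, retinoic acid made chiefly by ALDH1A2 takes part in patterning the chambers.

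Adh7, Adh1, Adh4 and Adh5 lie side by side on chromosome 3, all on the plus strand, in a stretch of 237.7 kb of GRCm38 (the assembly that mm10 denotes) that also holds Adh6a, Adh6b and a pseudogene. The upstream sequences of 4 members are shown because they belong to the neighbours Adh1 and Adh5 and to the retinaldehyde dehydrogenases Aldh1a1 and Aldh1a2, whose levels are set against each other below. Each is the 250 bases before a transcript start in RefSeq (GRCm38.p6), on the plus strand, 5′ to 3′, with CpG dinucleotides in capitals. A start in that table was matched for 6 of the 9 members, not for Aldh1a3, Aldh2 or Rdh10. The windows are chr3:138277335-138277584 for Adh1, chr3:138442843-138443092 for Adh5, chr19:20601718-20601967 for Aldh1a1 and chr9:71215539-71215788 for Aldh1a2. The RefSeq starts used for Adh1 and Aldh1a1 lie inside the wider GENCODE M21 span of each gene, so the window is upstream of that transcript and not of the whole gene.
Adh1: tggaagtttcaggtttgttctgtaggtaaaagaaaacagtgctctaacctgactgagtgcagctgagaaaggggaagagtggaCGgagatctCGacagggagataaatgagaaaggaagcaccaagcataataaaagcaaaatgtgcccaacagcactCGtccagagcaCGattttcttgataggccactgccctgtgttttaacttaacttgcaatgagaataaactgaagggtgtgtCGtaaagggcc
Adh5: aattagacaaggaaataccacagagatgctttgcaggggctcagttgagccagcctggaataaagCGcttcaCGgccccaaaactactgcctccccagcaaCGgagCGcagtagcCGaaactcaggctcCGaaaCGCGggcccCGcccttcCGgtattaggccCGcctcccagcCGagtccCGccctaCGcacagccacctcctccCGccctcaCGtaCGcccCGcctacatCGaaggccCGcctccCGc
Aldh1a1: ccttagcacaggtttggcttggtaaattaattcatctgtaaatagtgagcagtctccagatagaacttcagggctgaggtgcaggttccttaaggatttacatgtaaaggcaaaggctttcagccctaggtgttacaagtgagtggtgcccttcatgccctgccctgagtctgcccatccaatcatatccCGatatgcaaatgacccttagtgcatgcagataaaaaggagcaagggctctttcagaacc
Aldh1a2: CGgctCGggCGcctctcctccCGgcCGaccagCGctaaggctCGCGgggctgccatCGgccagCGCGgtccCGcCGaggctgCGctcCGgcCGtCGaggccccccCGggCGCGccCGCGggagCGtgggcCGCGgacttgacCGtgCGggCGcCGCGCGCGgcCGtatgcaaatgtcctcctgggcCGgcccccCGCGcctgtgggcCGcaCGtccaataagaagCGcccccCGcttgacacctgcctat

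The printed windows fall into a GC-poor and a GC-rich pair. Adh1 had 44.8% G and C with 5 CpG, and Aldh1a1 46.4% with 1 CpG. Adh5 had 63.6% with 21 CpG, and Aldh1a2 77.6% with 40 CpG, more G and C than 97.6% of the 32851 windows in the table, whose median was 52.4%. The windows were searched on both strands for 5 short motifs: TATAAA (the TATA box, in 12.4% of all windows), CACGTG (the E-box, in 6.02%), AGAACA (a single arm of a glucocorticoid receptor site, in 16.1%), AGGTCA (the core that nuclear receptors such as RAR bind, in 14.0%) and GGGCGG (the GC box, in 32.7%). The Adh1 window held AGAACA once, on the minus strand from position -235, counted back from the start. The Adh5 window held the GC box 3 times on the minus strand, from positions -108, -70 and -45. Neither Aldh1a1 nor Aldh1a2 held any of the 5. Of the members not printed, Adh4 held AGGTCA from positions -133 and -11, and Adh7 held TATAAA on the minus strand from position -202. No match overlapped another motif, and a match describes letters only.

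Before the results, the libraries themselves need describing. They held 10523709 to 15359296 reads assigned to genes, so that 3 counts, the upper limit that a count of 0 allows, correspond to 0.195 to 0.285 counts per 1e6 gene counts (CPM). Transcripts linked to sex went against the label male in libraries 2 and 3: Xist, which is made from the inactive X of female cells, had 1897 and 1806 counts there against 5 and 19 in libraries 1 and 4, and Ddx3y, Kdm5d, Eif2s3y and Uty on the Y had 0 or 1 count there against 43 to 437. Values for libraries 1 and 4 alone are therefore given with the results on spread. Markers of cardiomyocytes summed to 86396 ± 5245 CPM (SD, n = 4), with all 6 at 1 CPM or more. Between the highest and lowest library, sums of fibroblast, endothelial and macrophage markers were each within 1.18-fold. Smooth muscle and pericyte sums differed 1.22-fold, epicardium and mesothelium 1.42-fold and adipocyte sums 3.42-fold. Single markers within some of these sums went different ways, as given below. In whole tissue, fewer cells of a type and less RNA per cell cannot be told apart.

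Aldh2, the mitochondrial aldehyde dehydrogenase, took most of the reads that fell on these genes. Its levels were 316, 285, 321 and 305 CPM in libraries 1 to 4, a mean of 307 ± 16.3 CPM (SD, n = 4). The libraries lay close together, with library 2 the lowest. Aldh2 alone gave 78.9 ± 4.08% of the summed CPM of the 9 members, which came to 390.3 ± 31.9 CPM (SD, n = 4), a share of reads not scaled for length. The gene lies on chromosome 5 (121566027 to 121593824, minus strand), and 2.54% of its exon bases are shared with Gm42879, whose reads cannot be told apart from its own because the libraries do not keep strand.

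Adh5, the formaldehyde and nitrosothiol enzyme, also varied little. Its levels were 38.5, 36.1, 39.7 and 37.3 CPM in libraries 1 to 4, a mean of 37.9 ± 1.54 CPM (SD, n = 4). The coefficient of variation (CV) of 4.07% was no larger than the 4.47% that counting error alone would give. For Aldh2 the CV of 5.31% was above the 1.57% of counting error. The ratio of Aldh2 to Adh5 counts was 8.22, 7.88, 8.09 and 8.18 in libraries 1 to 4, almost the same proportion in each library. That follows from the small spread of each gene. A lower CV was found in 19.9% of tested genes for Aldh2 and in 11.6% for Adh5. Esd, whose product takes the next step after ADH5 in formaldehyde removal and which was named after its values were seen, stood at 27.7 ± 2.10 CPM.

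Adh1, the alcohol dehydrogenase best known from liver, differed most between libraries. Its levels were 42.5, 7.69, 16.1 and 47.4 CPM in libraries 1 to 4, from 612, 107, 169 and 728 counts. Libraries 1 and 4 were high and libraries 2 and 3 low, and the exact Poisson limits of 95%, which cover counting error only, ran from 39.2 to 46.0 CPM in library 1, from 6.30 to 9.29 CPM in library 2, from 13.7 to 18.7 CPM in library 3 and from 44.02 to 50.97 CPM in library 4. The highest library was 6.17-fold above the lowest, and the CV of 68.6% ranked 11 among the 9617 genes that averaged 5 CPM or more. Without library 2 the ratio of highest to lowest was 2.95, and between libraries 1 and 4 alone it was 1.12. These are the values for which the gene was chosen. Xist and the Y-linked genes divided the libraries in the same way, 1 and 4 against 2 and 3. In these 4 libraries the 2 patterns cannot be told apart, and a link between them was not tested.

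Whether another tissue moved with Adh1 was looked at with marker genes. Of 7 liver markers, 0 reached 1 CPM, their sum was 0.431 to 0.855 CPM, and albumin, Alb, had 0 counts in all 4 libraries. Adipocyte markers summed to 4.58, 12.1, 15.7 and 4.88 CPM in libraries 1 to 4, with 2 of 7 at 1 CPM or more and Adipoq at 0, 12, 4 and 3 counts. That sum was high where Adh1 was low. Cfd and Car3, the 2 at 1 CPM or more, were higher in libraries 2 and 3, as were Plin1, Retn and Adipoq at low counts. Cidec, with 11, 7, 16 and 14 counts, was lowest in library 2, and Lep had 0 counts there. The part of adipocytes in the spread of Adh1 was not tested. Smooth muscle and pericyte markers summed to 580, 495, 543 and 603 CPM, and macrophage markers to 198, 173, 182 and 204 CPM. Both sums had the same order of libraries as Adh1, over a 1.22-fold and a 1.18-fold range. Of their single markers only Tagln and Cd163 had that order. Rgs5 and Emr1 were highest in library 3, and Myh11 and C1qa were lowest there. Libraries 1 and 4 were the highest pair in 23.7% of all tested genes. The part of these cells in the spread of Adh1 was not tested either.

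**Figure D1:**
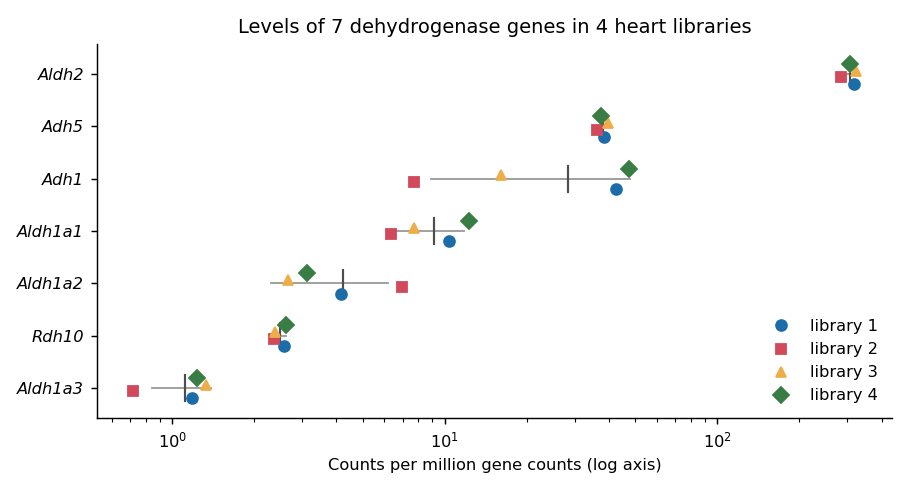
Level of each detected member in CPM (log axis) in the 4 libraries, with symbols for libraries, a vertical tick for the mean and a grey line for ± 1 SD. Aldh2, Adh5 and Rdh10 cluster tightly, while Adh1 runs from 7.69 to 47.4 CPM; Adh4, with 0 counts, and Adh7, with 1 count, are not drawn.

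The other counted genes of the chromosome 3 cluster had few or no reads. Adh4, a liver form, had 0 counts in all 4 libraries. The 3-count limit is 0.0553 CPM over the 54214421 summed gene counts, and the exact two-sided 95% Poisson limit is 0.0680 CPM. Adh7, the form of stomach and other epithelia that is active on retinol, had 1 count in library 3 and 0 elsewhere, with limits of the latter kind of 0.000467 to 0.103 CPM over the summed libraries. Adh6a had 2, 0, 0 and 1 counts, and the pseudogene Adh6-ps1, chosen after its values were seen, 8, 3, 3 and 5. Read along the chromosome, Adh1 starts 43.2 kb and Adh5 225 kb from the start of Adh7, and the counted genes Adh6a, Adh6-ps1 and Adh4 between them held 0 to 8 counts per library; Adh6b had no entry.

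**Figure D2:**
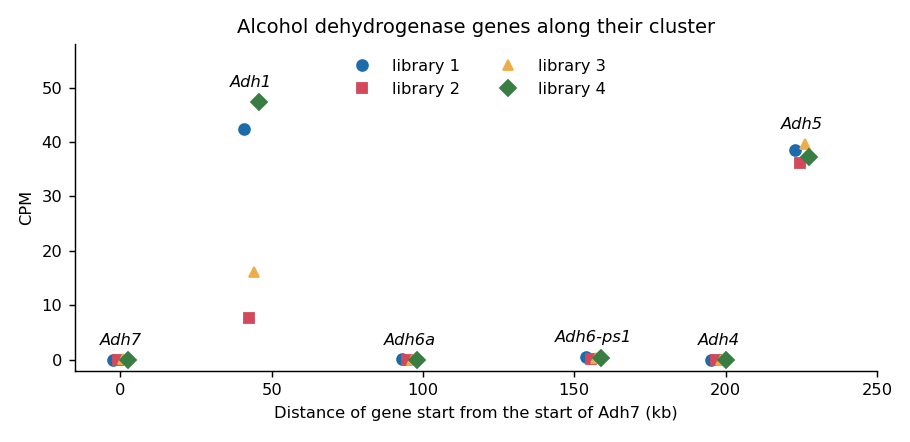
Level in CPM of the 6 counted genes of the cluster, in the 4 libraries, against the distance of each gene's start from that of Adh7 in kb. Adh1 and Adh5 stand above the rest, Adh5 with its libraries together (36.1 to 39.7 CPM) and Adh1 with libraries 1 and 4 far above libraries 2 and 3.

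The order of Adh1 and Adh5 depended on the library. The count of Adh1 was 1.10, 0.213, 0.404 and 1.27 times that of Adh5 in libraries 1 to 4, above it in libraries 1 and 4 and below it in the other two. Per kilobase of merged exon (2.233 kb for Adh1, 5.408 kb for Adh5) the ratio was 2.67, 0.517, 0.981 and 3.08. Adh1 was then above Adh5 in libraries 1 and 4, below it in library 2 and near equality in library 3. With the longest transcript as length the mean log2 ratio was 0.56, from 0.51 with merged exons. The side of equality on which library 3 falls therefore rests on the gene model. Coding sequences of the pair are 66.1% identical over 1117 aligned bases, and only 2.11% of the 50-base windows of Adh1 transcripts occur in another gene of GENCODE M21, nearly all of them in the antisense gene Gm16559, which shares 6.09% of its exon bases.

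The retinol dehydrogenase Rdh10, on chromosome 1 (16105774 to 16133734), was low and even. It had 2.57, 2.37, 2.38 and 2.60 CPM in libraries 1 to 4, from 37, 33, 25 and 40 counts. Its CV of 4.99% was below the 17.4% that counting error alone would give at this depth, so no difference between libraries was detectable. No other gene contributed 50-base windows to it.

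Of the 3 retinaldehyde dehydrogenases, Aldh1a1 was higher in libraries 1 and 4 and Aldh1a2 was highest in library 2. The libraries of Aldh1a3 could not be told apart. Aldh1a1 lies on chromosome 19 (20492715 to 20643465). Its levels were 10.3, 6.32, 7.70 and 12.2 CPM in libraries 1 to 4, a mean of 9.15 ± 2.65 CPM (SD, n = 4). Libraries 4 and 1 were the higher pair, as for Adh1 and for 23.7% of all tested genes, over a range of 1.94-fold. Between libraries 1 and 4 alone the ratio was 1.18. Aldh1a1 coding sequence is 91.6% identical to that of Aldh1a7, and 3.06% of its 50-base windows are also in Aldh1a7, which had 2, 1, 1 and 0 counts, so counts of Aldh1a1 are a little uncertain.

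Aldh1a2, the form that makes retinoic acid in the embryonic heart and its epicardium, lies on chromosome 9 (71215789 to 71296243). Its levels across libraries 1 to 4 were 4.16, 6.97, 2.66 and 3.13 CPM, from 60, 97, 28 and 48 counts. Library 2, where Adh1 and Aldh1a1 were lowest, was the highest, and library 3 the lowest, 2.62-fold apart. Without library 2 the range was 1.56-fold, and between libraries 1 and 4 it was 1.33-fold. Of 7 markers of epicardium and mesothelium 2 were at 1 CPM or more and none was at 0 in all 4 libraries; they summed to 11.2, 11.2, 15.9 and 11.3 CPM. The markers above 1 CPM went different ways: Tbx18 had 6.18, 4.45, 10.4 and 6.06 CPM, highest in library 3, and Wt1 3.82, 5.10, 3.801 and 4.17 CPM, highest in library 2 like Aldh1a2. Fibroblast markers summed to 927, 954, 829 and 923 CPM, in the same order of libraries as Aldh1a2 over a 1.15-fold range. That order was the one of the collagens Col1a1, Col1a2 and Col3a1, and not of Dcn, Lum, Pdgfra or Tcf21. Dcn had 254, 180, 246 and 270 CPM in libraries 1 to 4, lowest in library 2. The part of these cells in the spread of Aldh1a2 was not tested.

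Aldh1a3, on chromosome 7 (66390890 to 66427517, minus strand), had the fewest reads of the 7 detected members. Its levels were 1.18, 0.718, 1.33 and 1.24 CPM, from 17, 10, 14 and 19 counts. The CV of 24.4% was below the 26.1% of counting error, so the libraries could not be told apart at this depth.

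Levels of different genes were compared per kilobase of merged exon in GENCODE M21, as CPM per kb. The order was Aldh2 at 59.9 ± 3.18, Adh1 at 12.7 ± 8.73, Adh5 at 7.01 ± 0.285, Aldh1a2 at 1.87 ± 0.853, Aldh1a1 at 1.85 ± 0.537, Rdh10 at 0.596 ± 0.0297 and Aldh1a3 at 0.242 ± 0.0590 CPM per kb (SD, n = 4). Of the 6 neighbouring pairs in that order, the 4 without Adh1 were compared inside each library by an exact permutation test (sign flips of the log2 ratios, two-sided). With 4 libraries even a pair that holds in all of them cannot pass 0.05, and its p adjusted over the 4 pairs was 0.167. In 3 of them the gene placed higher was higher in 4 of 4 libraries (exact permutation, adjusted p = 0.167): Adh5 over Aldh1a2 by 3.99-fold, Aldh1a1 over Rdh10 by 2.98-fold and Rdh10 over Aldh1a3 by 2.48-fold.

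Aldh1a2 and Aldh1a1 did not differ beyond their spread: Aldh1a2 was higher in 1 of 4 libraries, with a log2 ratio of -0.04 ± 0.91 (SD, n = 4, exact sign-flip permutation p = 1). As a description, Aldh2 was above Adh1 in 4 of 4 libraries and Adh1 above Adh5 in 2 of 4. The order of Aldh1a2 and Aldh1a1 also rested on the gene model: Aldh1a1 has 4.937 kb of merged exon against a longest transcript of 2358 bases, and with the longest transcript as length the log2 ratio of Aldh1a2 to Aldh1a1 was -1.10.

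Spread between libraries was tested for the members other than Adh1 against genes of similar abundance, with edgeR's quasi-likelihood fit over all genes. Of those 8 members, 6 averaged 1 CPM or more and were tested, and 0 were called at a Benjamini-Hochberg adjusted p under 0.05, beside 0.445% of all 12358 tested genes. At an unadjusted p under 0.05 there were 2 of 6, Aldh1a2 and Aldh1a1, beside 6.00% of all tested genes. limma and the dispersion outliers of DESeq2 also called 0, beside 0.405% and 1.04% of all tested genes. By limma 2 had an unadjusted p under 0.05, beside 6.09% of all tested genes. The variance of Aldh1a2 was 6.56 times the trend (unadjusted p = 0.0172, edgeR adjusted p = 0.552, with adjusted p from 0.150 to 0.996 over the alternatives), and that of Aldh1a1 5.49 times (unadjusted p = 0.0271, edgeR adjusted p = 0.659, from 0.249 to 0.981). Variance was 1.01 times the trend for Aldh2, 0.743 for Aldh1a3, 0.406 for Adh5 and 0.0404 for Rdh10, with edgeR adjusted p of 0.995 or more. Without library 2, and with libraries 1 and 4 alone, 0 of 6 had an unadjusted p under 0.05 by edgeR. The shares over all tested genes were 5.93% and 5.1%, so a count of 0 among 6 says little. In those fits Aldh1a2 had an unadjusted p of 0.249 and 0.141 by edgeR, and Aldh1a1 of 0.0603 and 0.206. The ratio of the higher to the lower of libraries 1 and 4 was 1.04 for Aldh2, 1.03 for Adh5, 1.05 for Aldh1a3 and 1.01 for Rdh10. The median log2 variance ratio of the 6 was -0.21, against -0.23 over all tested genes.

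**Figure D3:**
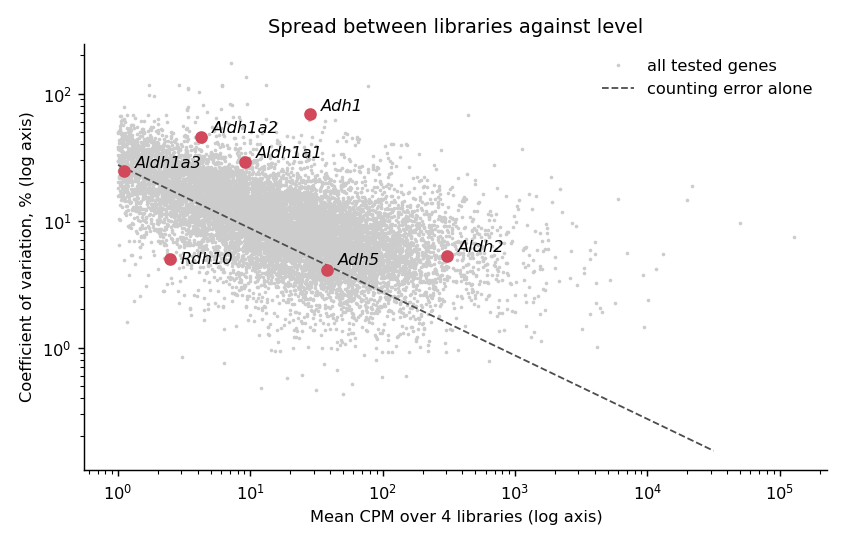
CV over the 4 libraries in percent against mean CPM, both on log axes, for all 12358 tested genes (grey) and the 7 detected members (red), with the CV that counting error alone would give (dashed). Adh5, Aldh1a3 and Rdh10 lie on or below the dashed line and Adh1, at 68.6%, at the upper edge of the genes of its level.

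The genes whose pattern over the 4 libraries was most like that of Adh1 were found among 9616 others averaging 5 CPM or more, by the root mean square difference in log2(CPM + 0.5) after each gene's own mean was subtracted. They were Fam107a at 0.14, Mt2 at 0.15, Ephb1 at 0.16, Timp4 at 0.19 and the predicted gene Gm8580 at 0.25, where the median over all genes was 1.04. Fam107a had 20.0, 4.17, 7.79 and 20.2 CPM in libraries 1 to 4, and the metallothionein Mt2 43.7, 8.76, 17.7 and 41.3 CPM. In all 5, libraries 1 and 4 were the highest and library 2 the lowest, which follows from choosing them by likeness to Adh1. Among the members averaging 5 CPM or more Aldh1a1 came closest, at 0.71 and rank 72, and Adh5, at 1.03 and rank 4440, was near the middle of all genes. Aldh1a2, Rdh10 and Aldh1a3 averaged less and were not ranked. Rbp7, of the retinoid list described below, came closer than Aldh1a1, at 0.63 and rank 51.

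Other genes of retinoid handling, a list of 37 (transport and storage proteins, other retinol dehydrogenases, CYP26 enzymes, receptors and response genes), gave no call. All 37 had an entry, 23 were tested, and 0 were called, beside the 0.445% of all tested genes, with 3 at an unadjusted p under 0.05 by edgeR, beside 6.00% of all tested genes. limma called 0, with 3 at an unadjusted p under 0.05, beside 6.09% of all tested genes. DESeq2 had 1 dispersion outlier, Cyp26b1, beside 1.04% of all tested genes. The median CV of the 23 was 10.9%, against 9.59% over all tested genes, a measure not matched for level. Relative to genes of similar abundance, their median log2 variance ratio was 0.16, beside -0.23 over all tested genes. Per kilobase the list was led by Tgm2, a transglutaminase that retinoic acid induces in many cells, at 92.9 CPM per kb, and by the retinaldehyde reductases Dhrs4 at 34.7 and Dhrs3 at 28.4 CPM per kb. Dhrs3, which turns retinaldehyde back into retinol, had 84.2, 79.2, 85.4 and 83.7 CPM in libraries 1 to 4, and Dhrs4 63.0, 62.4, 60.2 and 57.8 CPM. Both were even across libraries.

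Genes of clearance, storage and transport follow, all of them picked with their values in view. Cyp26b1, which breaks down retinoic acid, had 6.73, 15.4, 2.57 and 7.94 CPM in libraries 1 to 4 (edgeR unadjusted p = 0.000268, adjusted p = 0.0551). Library 2 was the highest and library 3 the lowest, as for Aldh1a2, a pattern found in 13.2% of all tested genes. Its adjusted p ran from 5.68e-05 with no filter on low counts to 0.984 with libraries 1 and 4 alone, and was 0.0412 without library 1, 0.186 without library 2, 0.247 without library 3 and 0.0402 without library 4. Cyp26a1 and Cyp26c1 had 0 or 1 count in each library. Rbp7, a retinol carrier of endothelium and fat, had 10.2, 4.96, 6.65 and 10.2 CPM (edgeR adjusted p = 0.539), and Lrat, which esterifies retinol for storage, 2.01, 1.80, 0.380 and 1.95 CPM on 29, 25, 4 and 30 counts (edgeR adjusted p = 0.769). With libraries 1 and 4 alone the unadjusted p by edgeR was 0.956 for Rbp7 and 0.884 for Lrat, from 0.0159 and 0.0404 with all 4. For Lrat that p was 0.939 without library 3, its lowest, and 0.0147 without library 2. Stra6, the receptor for circulating retinol, had 6, 0, 3 and 1 counts.

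Transcripts of all 6 receptors were detected, and these too were named with their values in view. Per kilobase the order was Rxrg at 27.5 ± 2.20, Rxra at 23.3 ± 1.02 and Rxrb at 12.6 ± 1.37 CPM per kb, then the retinoic acid receptors Rarg at 6.91 ± 1.11, Rara at 5.43 ± 0.169 and Rarb at 2.44 ± 0.390 CPM per kb (SD, n = 4). In CPM, Rxra had 133, 129, 120 and 127 in libraries 1 to 4 and Rarg 26.6, 36.1, 25.6 and 29.4. Of these 6 receptors 0 had an unadjusted p under 0.05 by edgeR, beside 6.00% of all tested genes.

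**Figure D4:**
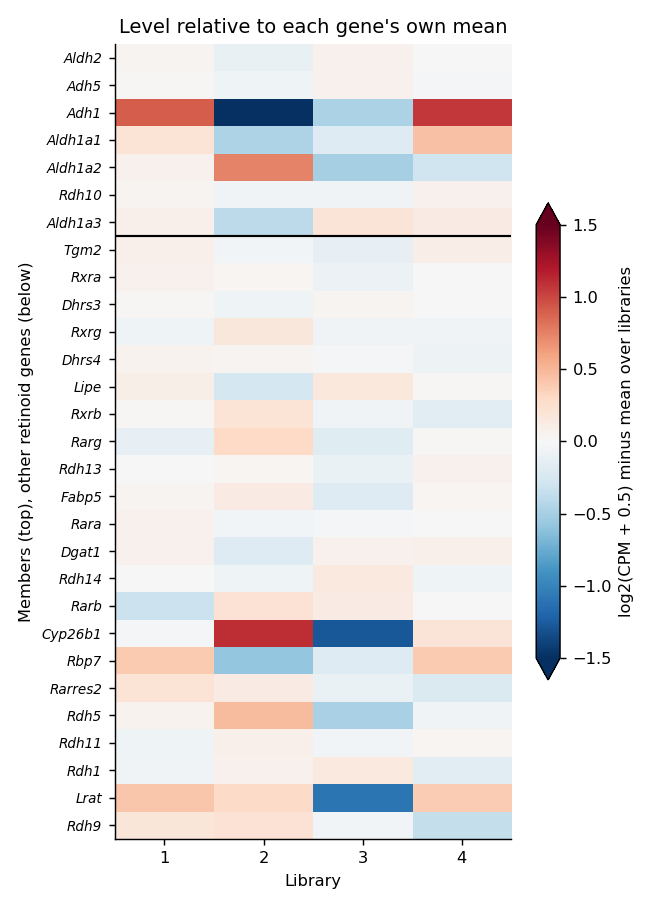
log2(CPM + 0.5) minus each gene's mean over the 4 libraries, in colour from -1.5 (blue) to 1.5 (red), for the 7 detected members (above the line) and the tested genes of the retinoid list but 1, each part ordered by mean CPM. Adh1 is red in libraries 1 and 4 and blue in 2 and 3, Aldh1a2 and Cyp26b1 are darkest red in library 2 and darkest blue in library 3, and most other rows are pale.

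Other alcohol and aldehyde dehydrogenases and enzymes that act beside them, a list of 27 with 26 entries, also gave no call. Of 20 tested, 0 were called, beside 0.445% of all tested genes. By edgeR 1, beside 6.00% of all, had an unadjusted p under 0.05. This was Aldh1l1, picked with its values in view, at 5.55, 6.83, 2.76 and 5.66 CPM in libraries 1 to 4 (edgeR adjusted p = 0.737). By limma 1 had an unadjusted p under 0.05, beside 6.09% of all. limma and DESeq2 called 0, beside 0.405% and 1.04% of all. With libraries 1 and 4 alone the unadjusted p of Aldh1l1 by edgeR was 0.948. Without library 3, its lowest, that p was 0.493, and without library 2 it was 0.0273. The median CV of the 20 was 6.92%, against 9.59% over all tested genes, a measure not matched for level. Relative to genes of similar abundance, their median log2 variance ratio was -0.08, beside -0.23 over all tested genes. Per kilobase the list was led by Acss1, the mitochondrial enzyme that activates acetate, at 94.9 CPM per kb, by sorbitol dehydrogenase, Sord, at 93.1, and by catalase, Cat, at 79.7 CPM per kb. Acss1 had 95.0, 91.8, 95.3 and 97.7 CPM per kb in libraries 1 to 4, above the 55.5 to 62.7 CPM per kb of Aldh2.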

How the data were processed

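Libraries were single-end, made from poly(A)-selected RNA and do not keep strand, per the labels' protocols. The authors deposited raw counts of reads per gene symbol. Per the submitters' processing notes, the build was mm10 and the tools named, with no role given, are HTSeq, edgeR, DESeq, TopHat2 2.0.10, TopHat and Bowtie2; which annotation and counting mode were used is not given in the sources used here. The 5 closing rows that name no gene were left out: ambiguous reads were 0.824 ± 0.00778% and non-unique alignments 8.33 ± 0.147% of all listed (SD, n = 4), so sequence shared between genes is undercounted.

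CPM was computed over all gene counts, unscaled, and genes averaging 1 CPM or more were tested. The spread test used edgeR 4.0.16 in R 4.3.3: an intercept, trimmed mean of M-values (TMM) factors and a robust prior, with each gene's quasi-dispersion over the trend set against an F distribution on 3 and 7.42 degrees of freedom, upper tail. It was tested on simulated data. limma 3.58.1 and DESeq2 1.42.0 were alternatives. By symbol or RefSeq synonym, 98.5% of genes were matched to GENCODE M21.

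The members and gene lists were chosen with earlier results of these data known. Named are the 9 members, the 3 genes of each list with the most CPM per kb, called genes of a list, the 5 genes most like Adh1 and sex-linked genes; any other gene named was picked with its values in view. In the retinoid list, 1 gene that entered the counts is not reported here.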

Additional observations from a re-analysis of the deposited data

Results flagged for a closer look

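Of the genes named that had more than 3 counts in some library, 3 had a library far from the other 3. The rule was Dixon's gap criterion for 4 samples, which chance meets in about 1 group of 20. With many genes looked at, some meet it by chance alone. Lrat, which esterifies retinol, had 4 counts in library 3 against 25 to 30 in the others, a gap of 0.868 of its range. Catalase, Cat, had 187 CPM in library 2 against 213 to 217 CPM in the others, a gap of 0.874 of its range. Aldh2 was lowest in the same library, as were 30.7% of all tested genes. The receptor Rxrg had 70.8 CPM in library 2 against 60.4 to 61.0 CPM in the others, a gap of 0.945 of its range. No member with more than 3 counts in some library met the criterion, which leaves out Adh4 and Adh7.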

How the results depend on the processing

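The count of called members other than Adh1 stayed at 0 under all 11 alternatives, and so did that of the dehydrogenase list. Over all tested genes the share called ran from 0.0486% with libraries 1 and 4 alone to 1.48% with no filter on low counts. At such shares a count of 0 among so few genes says little. The retinoid list had 0 calls in the reported fit and 1, Cyp26b1, without TMM factors, without the filter on abundance and as a dispersion outlier of DESeq2, and 0 to 1 when single libraries were left out (1 without library 1 and without library 4). With libraries 1 and 4 alone it had 0. The number of neighbouring pairs per kilobase with the stated gene higher in every library was 4 with other lengths, another added count or any library left out, and 5 with libraries 1 and 4 alone; pairs in the opposite order throughout are not in that number. The log2 ratio of Aldh1a2 to Aldh1a1 ran from -0.47 to 0.23 when single libraries were left out and changed sign without library 1 (0.01), library 3 (0.08) or library 4 (0.23). Leaving the ribosomal RNA precursor Rn45s out of the total raised mean CPM, for example of Aldh2 to 352 and of Adh5 to 43.4. The causes were not tested. No paired analysis was possible because the libraries form a single group. Depth limits Rdh10, Aldh1a3, Adh4 and Adh7: at 0 to 40 counts per library, differences within the counting error could not be seen.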
